A study of Mus musculus with 9 samples.

Results

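Hearts of adult mice homozygous for a premature stop codon in Mybpc3 were compared with hearts of wild-type mice, both given saline. The comparison used 6 of the 9 libraries of the series: 3 saline-treated wild-type hearts and 3 saline-treated hearts of the genotype Mybpc3R946X/R946X. All 6 came from strain C57BL/6J, and the labels call the mice adult without giving an age or a sex. The other 3 libraries, from mutant mice given a base editor, entered none of the values below except in 1 alternative fit. Polyadenylated RNA of whole flash-frozen heart tissue was sequenced, so each library mixed all the cell types of the sampled piece, and fewer cells of a type cannot be told apart from less RNA per cell. The mutant mice carry the stop codon on both alleles, and no group analysed here was heterozygous, so the comparison describes the homozygous state alone. Of the 15589 genes in the deposited table, the 13632 with a mean of at least 1 over these libraries were tested.

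Mybpc3 encodes cardiac myosin-binding protein C, which sits on the thick filament of the sarcomere, the contractile unit of heart muscle, and restrains how myosin heads engage actin. Loss-of-function variants of the human gene are a common cause of hypertrophic cardiomyopathy, a disease in which the heart wall thickens. Stressed heart muscle is known to turn on a set of genes used before birth, among them the natriuretic peptides, beta-myosin heavy chain and skeletal alpha-actin, and often to lower genes of electrical repolarisation and of fatty acid oxidation. Transcripts with a premature stop codon are commonly degraded by nonsense-mediated decay.

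The gene lies on the forward strand of chromosome 2 of the mouse genome (GRCm38). In the GENCODE M21 transcript ENSMUST00000111430, which spans 91118144 to 91136510, the arginine codon named in R946X reads CGA, at positions 91132942 to 91132944. It lies in the coding part of exon 27 of 35, and 74% of the 1277 codons precede it. The reference sequence around it, at chr2:91132918-91132968, is shown because it is the site of the only designed difference between the groups. Capitals mark the codon that the mutation turns into a stop.
Mybpc3 R946X codon: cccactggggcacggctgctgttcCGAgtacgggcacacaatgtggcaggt

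Mybpc3 transcript was strongly reduced. Its values were 1510, 1795 and 2039 in the wild-type libraries (1781 ± 265, mean ± SD, n = 3) and 133, 142 and 186 in the mutant libraries (154 ± 28.4). Every mutant library lay far below every wild-type library, and the mutant mean was 8.63% of the wild-type mean. This is a difference of -3.53 on the log2 scale with an SE of 0.157 (limma adjusted p 2.65e-05), and the adjusted p lay between 2.65e-07 and 0.000989 over 19 alternative analyses. Values here and below are the deposited per-library numbers, which sum to nearly the same total in each library. Fold changes are differences of mean log2(value + 1), so for genes with low values they come out smaller than the ratio of the raw values.

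No neighbouring gene was called lower in the reported fit. Of 22 other tested genes within 500 kb of Mybpc3, 1 was called: Pacsin3, about 119 kb away, at a log2 fold change of 0.44 (limma adjusted p 0.0242), a call that was lost under both other scalings (0.0626 and 0.0552) and with any 1 library other than wild type replicate 2 left out (0.0528 to 0.132). The nearest gene, Madd, differed by -0.29 (adjusted p 0.321). Rapsn, about 72 kb away, was lower at -0.52 and just missed the threshold (limma adjusted p 0.0513). Of 13 listed neighbours, 1 was called lower under median-of-ratios or upper-quartile factors and with mitochondrially encoded transcripts left out. The same count came with a pseudocount of 0.1, a mean of at least 10 or no rounding floor. It also came with prior degrees of freedom from all tested genes and with all 9 libraries in the fit. The 18 factors of nonsense-mediated decay gave 0 calls with limma, with a median log2 fold change of 0.08 against 0.07 over all tested genes. Among them, Smg1, a kinase of that pathway, was 53, 80 and 81 in wild type and 99, 99 and 118 in mutants (log2 fold change 0.58, adjusted p 0.0862), and Upf1, its central helicase, differed by -0.02 (adjusted p 0.986). Whether other transcripts with premature stop codons changed was not analysed here.

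Library totals lay between 999152 and 999353, and 14151 to 14934 genes had a value above 0 in a library. Sequencing depth is unknown, so precision rests on the 3 libraries per group. Mitochondrially encoded transcripts took 17% to 24.1% of the total. Pairwise Pearson correlations of log2 values were 0.982 to 0.990 within groups and 0.960 to 0.977 between them, as a description of libraries that share most genes. The first principal component held 55.3% of the variance and placed the wild-type libraries at -28.3, -18.7 and -27.4 (replicates 1 to 3) and the mutant ones at 12.6, 23.0 and 38.9. Xist, a transcript of the inactive X chromosome, was 119 in wild type replicate 1 and 351 in mutant replicate 3 and was listed at 0 in the other 4, whose Ddx3y, a Y-linked gene, was 70 to 97. Each group thus held 1 library of the female pattern, and results are also given below without those 2 libraries. The labels number replicates without stating separate animals, so p-values measure the spread between these libraries.

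Between the saline groups 1051 of 13632 genes were called at an adjusted p under 0.05 (7.71%), 622 higher in mutants (4.56%) and 429 lower (3.15%). The groups did not overlap in 21.6% of tested genes, with the mutants above in 12.8% and below in 8.78%. Of the called genes, 432 differed at least 2-fold, 291 higher and 141 lower, and 58 rose and 22 fell at least 4-fold. The median size of the change among called genes was 0.89 on the log2 scale. Among all tested genes, 8060 had a log2 fold change above 0 and 5572 below. Genes with a mean of at least 100 were called more often (13.5%) than those with a mean of 10 to under 100 (7.62%) or of 1 to under 10 (6.10%). The share of higher calls, 59.18% here, was 53.62% under median-of-ratios factors and 47.75% (626 higher, 685 lower) under upper-quartile factors, so the balance between rises and falls depends on the scaling. The count was 528 without mutant replicate 2, 628 without wild type replicate 1, 643 without wild type replicate 3 and 580 without both libraries with Xist, 546 of which were among the 1051. In every alternative that tested them, 375 genes were called.

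**Figure D1:**
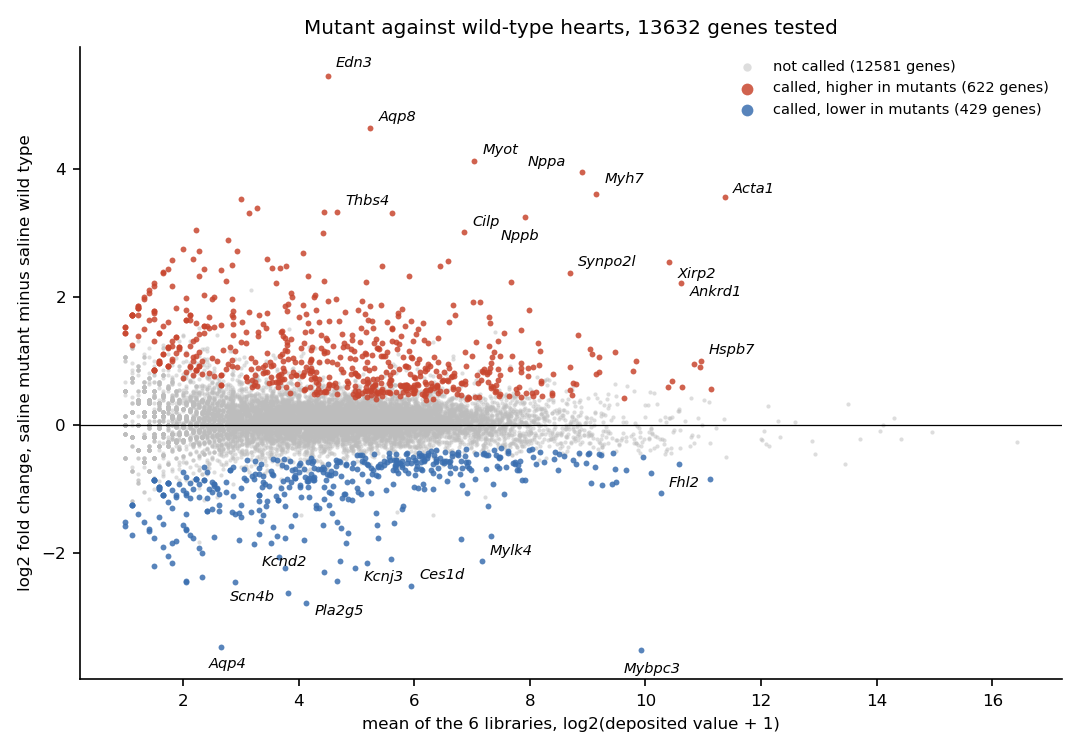
Each point is 1 of the 13632 tested genes. The horizontal axis gives the mean over the 6 libraries as log2(deposited value + 1) and the vertical axis the log2 fold change of saline mutant minus saline wild type. Red points are the 622 genes called higher and blue points the 429 called lower; Mybpc3 lies at the bottom (-3.53) and Edn3, listed at 0 in wild type, at the top.

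The 12 largest rises joined cardiac stress genes with genes at or near 0 in wild-type hearts. Edn3, which encodes a ligand of the endothelin receptors, read 39, 51 and 40 in the mutant libraries and was listed at 0 in all of the others (limma adjusted p 2.88e-06), so no fold is given. Aqp8, a water channel, went from 2, 1 and 3 to 78, 75 and 62, a 35.8-fold rise of the mean. Myot, which encodes the Z-disc protein myotilin, went from 14, 9 and 18 to 261, 238 and 245, or 18.1-fold. In each of these genes the mutant libraries lay close together and far above the wild-type ones. Nppa, the atrial natriuretic peptide, was 61, 42 and 45 in wild type and 356, 858 and 1489 in mutants. The mutant libraries spread widely for Nppa, with replicate 3 the highest, yet the lowest was still above every wild-type library (log2 fold change 3.95, SE 0.432, adjusted p 0.00107).

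Among the remaining large rises, Nppb, the B-type natriuretic peptide, went from 61, 38 and 38 to 344, 477 and 490. Myh7, the beta-myosin heavy chain of slow and fetal muscle, went from 84, 66 and 100 to 1024, 759 and 1364. Acta1, skeletal alpha-actin, went from 266, 437 and 597 to 4810, 4989 and 4824, with mutant libraries close together and wild-type libraries more spread. Matrix and secreted proteins followed. Adamts20, a secreted metalloprotease, was 0, 1 and 0 in wild type and 11, 14 and 16 in mutants. Fmod, the collagen-binding proteoglycan fibromodulin, was 1, 1 and 0 against 11, 14 and 25, and Thbs4, thrombospondin 4, was 3, 4 and 3 against 33, 33 and 70. Mutant replicate 3 was the highest library for both. Nlrc3, a regulator of innate immune signalling, was 2, 4 and 3 against 38, 46 and 32, and Cpxm2, a carboxypeptidase-like protein, was 5, 7 and 13 against 108, 93 and 64. All 12 genes were called in every alternative that tested them.

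**Figure D2:**
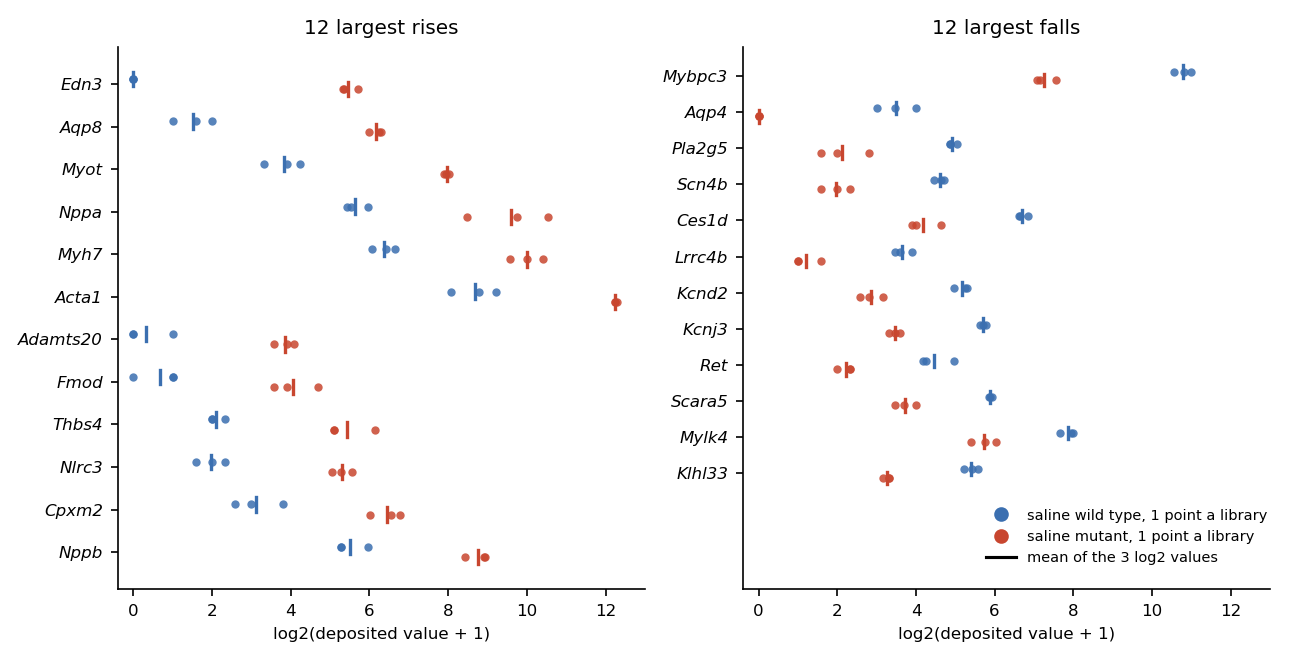
Values of the 12 largest rises (left) and 12 largest falls (right) as log2(deposited value + 1) on the horizontal axis. Each point is 1 library (blue saline wild type, red saline mutant) and each bar the mean of the 3 log2 values. Only genes whose groups do not overlap were eligible. The widest spread among mutants is in Nppa (356 to 1489).

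After Mybpc3, the 12 largest falls took in a water channel, a secreted enzyme and channels of the cardiac membrane. Aqp4, the water channel of astrocytes and muscle, was listed at 0 in all mutant libraries and read 7, 15 and 10 in the wild-type ones (limma adjusted p 0.000204). Pla2g5, a secreted phospholipase, went from 28, 32 and 28 to 6, 2 and 3. Scn4b, a regulatory subunit of sodium channels, went from 24, 21 and 25 to 4, 3 and 2. The 3 wild-type libraries lay close together for both genes. Kcnd2, a pore subunit of the transient outward potassium current, went from 30, 38 and 37 to 8, 6 and 5. Kcnj3, a subunit of the acetylcholine-gated potassium channel, went from 54, 48 and 51 to 10, 11 and 9, with a mutant mean at 19.6% of the wild-type mean.

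The rest of these falls covered enzymes, receptors and adhesion proteins. Ces1d, a carboxylesterase of lipid metabolism, went from 99, 97 and 114 to 24, 15 and 14, and Lrrc4b, a synaptic adhesion protein, from 10, 14 and 11 to 2, 1 and 1. Ret, the receptor of glial-derived growth factors, was 18, 30 and 17 against 4, 4 and 3. Scara5, a scavenger receptor that binds ferritin, was 58, 60 and 57 against 15, 10 and 12. Mylk4, a kinase of the myosin light chain kinase family, was 200, 246 and 252 against 64, 53 and 41, and Klhl33, a Kelch protein, was 36, 42 and 47 against 9, 9 and 8. Every one of the 12 falls was called in each alternative that gave it a value.

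By the size of the difference in value, the largest rises were in Acta1 (4441 higher on average), Ankrd1, Xirp2, Hspb7 and Eef1a1. Ankrd1, a stretch-responsive ankyrin repeat protein, was 411, 591 and 663 against 1811, 2695 and 3291. Xirp2, an actin-binding protein of the intercalated disc, was 325, 461 and 411 against 2146, 2407 and 2411. Eef1a1, an elongation factor of protein synthesis, was 1398, 1468 and 1218 against 2066, 2417 and 3286; its limma adjusted p of 0.0151 became 0.0559 without mutant replicate 2, 0.062 without wild type replicate 1 and 0.0591 without wild type replicate 3. The largest falls in value were in Mybpc3, mt.Co3, Fhl2, mt.Rnr1 and Eno3. Fhl2, a LIM-domain protein of the sarcomere, was 1787, 1728 and 1481 against 873, 743 and 759 (log2 fold change -1.07, SE 0.119, limma adjusted p 0.00112). The mutant libraries thus held 47.5% of the wild-type mean of Fhl2.

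Genes of hypertrophy and the fetal programme formed the list with the highest share of calls. Of 23 tested members, 19 rose and 1 fell, with a median log2 fold change of 1.40; over all genes 4.56% rose and 3.15% fell. The list was written with earlier results of these data known, so its count is a description. Besides Nppa, Nppb, Myh7, Acta1, Xirp2 and Ankrd1, the rises included Rcan1, a calcineurin inhibitor that calcineurin itself induces (69, 81 and 66 against 311, 213 and 191), and Fhl1, a LIM protein (115, 119 and 105 against 252, 198 and 277). Ankrd2, a relative of Ankrd1, and Gdf15, a stress-induced hormone, read 0 in all wild-type libraries and reached 5, 3 and 5, and 3, 4 and 6, in the mutants. The 1 fall was in Acta2, smooth muscle actin (257, 328 and 189 against 118, 118 and 117), whose call was lost without the libraries with Xist (adjusted p 0.0645). Acta1, Acta2 and Actc1 have near-identical coding sequences, and Myh6 and Myh7 are close copies, so how the authors' counting divided reads within these pairs is uncertain. Without both libraries with Xist 16 members rose and 0 fell. Markers of atrial muscle, whose list shares Nppa and Myl4 with this one, moved too. Of 12 such markers 6 were tested, with sums of 146, 118 and 122 in wild type and 394, 898 and 1550 in mutants. Nppa alone made up 61, 42 and 45 of the wild-type sums and 356, 858 and 1489 of the mutant ones. Nppa, Myl4, an atrial light chain (1 in each wild-type library against 3, 3 and 5), and Dkk3, a secreted Wnt modulator (5, 5 and 4 against 13, 17 and 35), rose, the call of Myl4 being lost without wild type replicate 1 (limma adjusted p 0.0589) or both libraries with Xist (0.129). Kcnj3 and Stard10, a lipid-transfer protein (19, 16 and 15 against 6, 3 and 6), fell, and Gja5, an atrial connexin, was 6 in every library. The part of atrial tissue in these results was not tested.

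**Figure D3:**
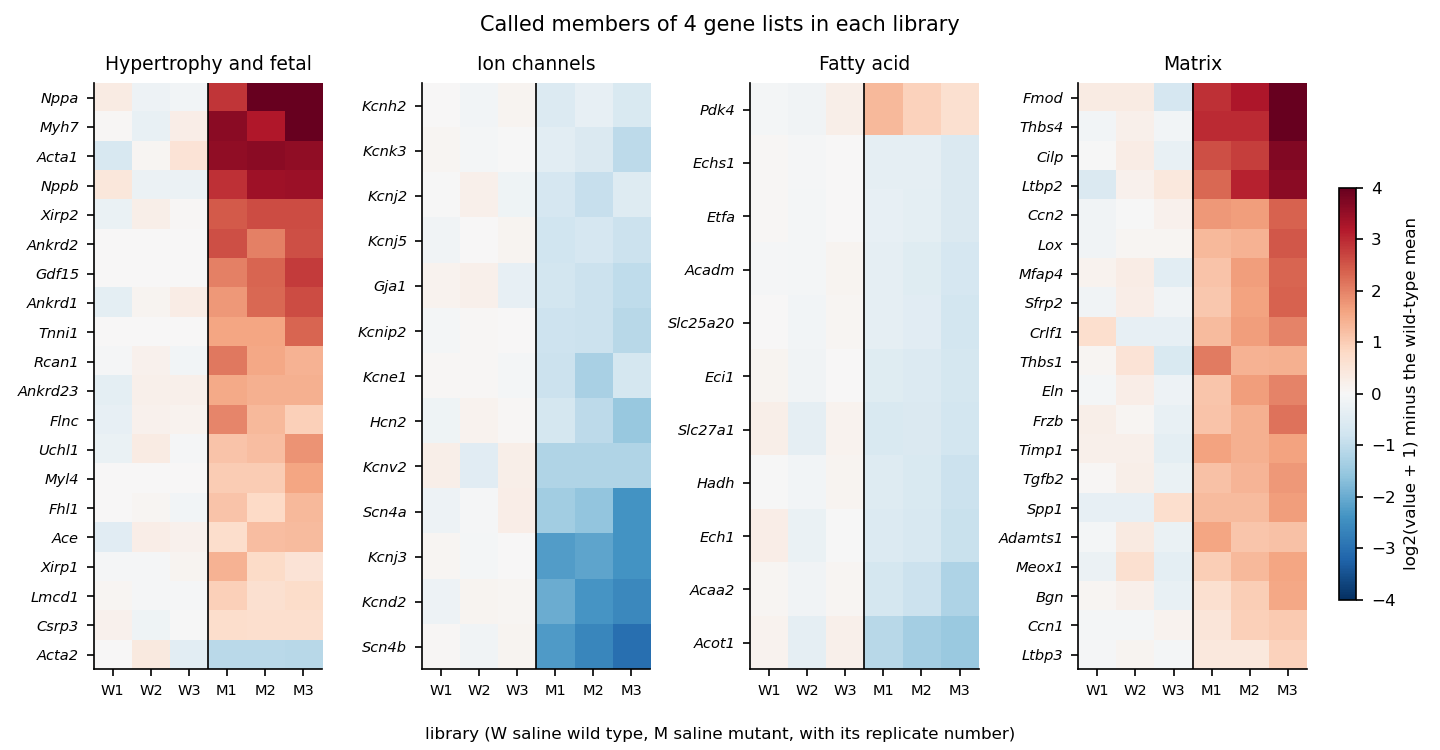
Called members of 4 gene lists in each library (a few called channels are not drawn), as log2(deposited value + 1) minus the mean of the 3 wild-type libraries (colour, from -4 to 4; values beyond are drawn at the limit). Columns W1 to W3 are saline wild type and M1 to M3 saline mutant; red rows rose and blue rows fell, and mutant replicate 3 has the deepest colour for most matrix genes.

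The RefSeq sequences around the start sites of 4 of these stress genes (GRCm38.p6, each from 250 bases before to 50 after the annotated start) are shown because the genes rose together. Capitals mark matches, on either strand, to CATTCC (the element bound by TEAD factors), the CArG box (bound by serum response factor), GATAA (bound by GATA factors) or TATAAA. The CArG box of Acta1 matched on both strands over the same bases, and no other marked matches overlap. CACGTG (the E-box bound by clock factors among others) and TGANTCA (bound by AP-1) were searched too and had no match here.
Nppa, chr4:148000472-148000771, forward strand: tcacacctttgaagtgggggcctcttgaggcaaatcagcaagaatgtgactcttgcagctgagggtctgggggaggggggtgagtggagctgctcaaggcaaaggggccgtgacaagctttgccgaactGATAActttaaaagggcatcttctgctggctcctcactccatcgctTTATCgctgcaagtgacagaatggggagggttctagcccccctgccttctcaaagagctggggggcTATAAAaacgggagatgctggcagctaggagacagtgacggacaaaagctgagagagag
Nppb, chr4:147985650-147985949, forward strand: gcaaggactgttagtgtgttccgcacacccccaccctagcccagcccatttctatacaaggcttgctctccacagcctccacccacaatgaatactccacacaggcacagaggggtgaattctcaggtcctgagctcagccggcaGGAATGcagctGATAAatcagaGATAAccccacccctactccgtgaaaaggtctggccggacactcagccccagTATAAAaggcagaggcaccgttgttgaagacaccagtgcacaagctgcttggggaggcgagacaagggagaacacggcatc
Acta1, chr8:123894726-123895025, reverse strand: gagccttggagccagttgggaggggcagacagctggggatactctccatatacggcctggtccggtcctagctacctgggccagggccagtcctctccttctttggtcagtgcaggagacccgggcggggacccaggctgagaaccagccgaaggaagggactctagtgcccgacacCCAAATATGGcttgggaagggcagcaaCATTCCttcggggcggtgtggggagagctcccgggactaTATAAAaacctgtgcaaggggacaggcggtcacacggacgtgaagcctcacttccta
Ankrd1, chr19:36119795-36120094, reverse strand: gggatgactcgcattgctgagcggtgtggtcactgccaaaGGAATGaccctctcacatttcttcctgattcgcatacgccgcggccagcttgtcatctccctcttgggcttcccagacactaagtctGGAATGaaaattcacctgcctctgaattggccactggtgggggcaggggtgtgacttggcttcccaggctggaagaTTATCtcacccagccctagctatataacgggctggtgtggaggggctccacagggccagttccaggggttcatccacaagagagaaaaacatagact

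These motifs stood in the promoters of many other tested genes too, some more often than others. Promoter windows were matched by symbol for 9941 tested genes, for 459 of the genes called higher and for 314 of those called lower. CATTCC stood in 12% of the tested, 15.9% of the higher and 16.6% of the lower genes' windows. GATAA stood in 15.8%, 14.6% and 19.1%, the CArG box in 1.36%, 1.53% and 1.91%, and TATAAA in 7.23%, 10.9% and 9.24%. CACGTG stood in 10.2%, 10.7% and 8.6%, and TGANTCA in 4.79%, 7.41% and 6.37%. A match in a window of this length is a description of letters, not a binding site.

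Within the sarcomere, single isoforms changed while most main components did not pass the test. Of 17 tested thick-filament and M-band genes, 5 rose and 3 fell. Mybpc2, the fast skeletal myosin-binding protein C, was 23, 26 and 32 in wild type and 167, 165 and 156 in mutants (log2 fold change 2.56, SE 0.130, limma adjusted p 4.68e-05). Every mutant library was thus well above every wild-type one for this paralog of Mybpc3. Myom3, an M-band protein of slow fibres, went from 4, 4 and 3 to 10, 10 and 11. Mylk3, the cardiac myosin light chain kinase, fell along with Mylk4, from 628, 714 and 740 to 366, 384 and 358. Myh6, the main myosin heavy chain of the adult mouse heart, was 14823, 20732 and 23109 against 23965, 21458 and 16937, with overlapping groups (log2 fold change 0.10, SE 0.222); its sign changed without mutant replicate 1 or wild type replicate 1. Ttn, the giant spring protein titin, differed by 0.29 (adjusted p 0.492), and Myl2, the ventricular regulatory light chain, by 0.04 (adjusted p 0.933).

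Of 17 tested thin-filament genes, 4 rose and 2 fell. Neb, the skeletal thin-filament ruler nebulin, was 2, 5 and 4 in wild type and 32, 24 and 28 in mutants. Tpm2, the beta-tropomyosin of skeletal and fetal muscle, went from 19, 21 and 16 to 83, 125 and 89. Tnni1, the slow skeletal troponin I of the fetal heart, read 2, 2 and 4 in mutants and 0 in all wild-type libraries; its call was lost without the libraries with Xist (limma adjusted p 0.0619). These rises were all in isoforms that the adult mouse heart uses little. The skeletal muscle marker list had 2 tested members and lower sums in mutants (33, 31 and 34 against 13, 18 and 23); Myl1, a fast skeletal light chain, fell (31, 30 and 31 against 12, 15 and 20, with a limma adjusted p of 0.0117 that became 0.0555 without mutant replicate 2 and 0.0608 without wild type replicate 1) and Mylpf, another, was 2 or less in every library. The 2 thin-filament falls were not called without both libraries with Xist. The adult cardiac isoforms Tnnt2 and Tnni3 were lower in each mutant library without passing the test (log2 fold changes -0.33 and -0.50, adjusted p 0.166 and 0.0505), and Tnni3 passed in 5 of 19 alternatives. Actc1, cardiac actin, was 10692, 10722 and 9667 against 13680, 12664 and 12481 (0.32, adjusted p 0.245).

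Z-disc, costamere and stretch-response genes moved mostly upwards, with 16 of 38 tested members higher and 2 lower and a median log2 fold change of 0.38. Synpo2l, an actin-bundling protein of the Z-disc, was 129, 129 and 138 against 722, 654 and 699 (2.38, SE 0.0916, limma adjusted p 1.15e-05). Its libraries lay close together in both groups, and its adjusted p was the smallest of the list. Smaller rises included Hspb7, a chaperone of filamin (1427, 1185 and 1351 against 2952, 2609 and 2379), and Pdlim1, a scaffold protein of actin fibres (74.0 ± 4.36 in wild type and 129.7 ± 7.64 in mutants). The falls were in Fhl2 and in Sgca, the dystrophin-associated alpha-sarcoglycan (86, 81 and 93 against 69, 62 and 59), whose call was lost with any 1 library other than mutant replicate 1 left out (limma adjusted p 0.0624 to 0.166). Actn2 and Ldb3, core Z-disc proteins, were above wild type in each mutant library at 0.36 and 0.31 and were not called (adjusted p 0.137 and 0.129). Without both libraries with Xist, 16 members rose and 1 fell.

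**Figure D4:**
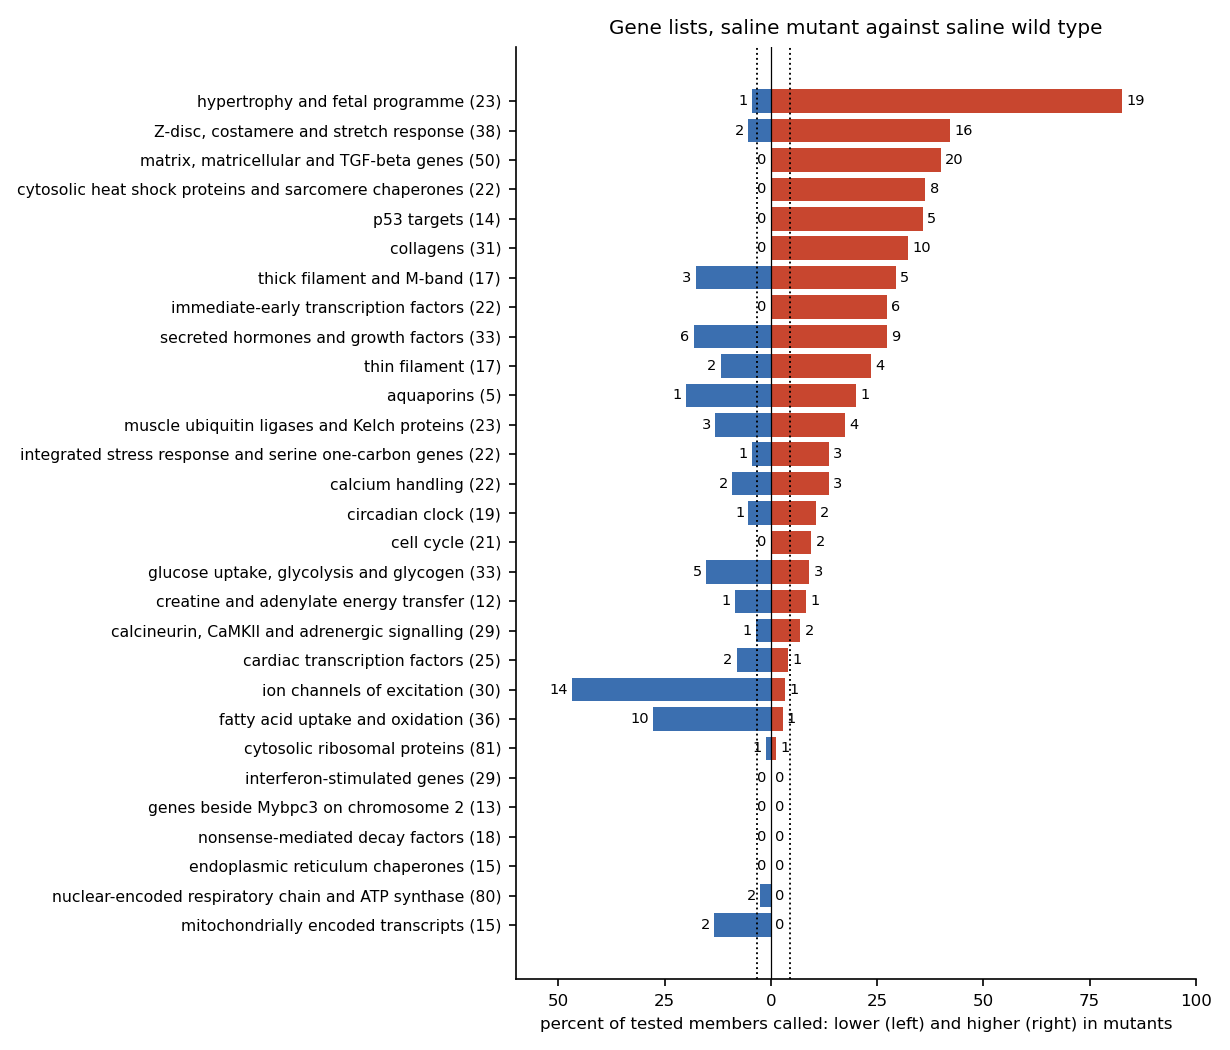
Percent of the tested members of each gene list that were called lower (blue, left) or higher (red, right) in saline mutants. Numbers beside bars are counts of called genes, numbers in brackets are tested members, and dotted lines give the shares over all genes, 3.15% lower and 4.56% higher; hypertrophy genes reach furthest to the right (19 of 23) and ion channels furthest to the left (14 of 30).

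Channels that shape the action potential were lower as a group. Of 30 tested members 14 fell and 1 rose, with a median log2 fold change of -0.41. Kcnj3 is also an atrial marker, and the 6 tested atrial markers went both ways, with 3 called higher and 2 lower. Besides Scn4b, Kcnd2 and Kcnj3, the falls took in Kcnip2, the partner of Kcnd2 in the transient outward current (206, 224 and 217 against 120, 119 and 99), and Kcnj5, the partner of Kcnj3 (74, 82 and 88 against 46, 50 and 44). Scn4a, the skeletal muscle sodium channel, went from 17, 19 and 24 to 7, 6 and 3. Gja1, the gap-junction protein connexin 43, was 325, 339 and 238 against 180, 162 and 146 (-0.87, SE 0.150, limma adjusted p 0.00890, and 0.0758 without both libraries with Xist). The number of falls was 9 without mutant replicate 2, 9 without wild type replicate 1 and 9 without both libraries with Xist. Kcnq1 and Kcna5, potassium channel subunits, were not called (-0.23 and -0.19).

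Calcium-handling genes went both ways, with 3 of 22 tested members higher and 2 lower. Casq1, the skeletal calsequestrin that buffers calcium in the sarcoplasmic reticulum, was 10, 13 and 13 in wild type and 97, 64 and 58 in mutants (2.48, limma adjusted p 0.000260), and its cardiac counterpart Casq2 was 1045, 1077 and 1082 against 1633, 1630 and 1536 (0.58, adjusted p 0.00750). Casq2 lost its call without mutant replicate 2 (0.0564) and under both other scalings (0.0814 and 0.0624). Hrc, a calcium-binding protein of the same store, went down from 815, 939 and 1031 to 578, 532 and 399. Cacnb2, a subunit of the L-type calcium channel, was 62, 71 and 67 against 45, 41 and 39. Atp2a2, the pump that refills the store, was 13060, 13543 and 14131 against 10066, 9271 and 7538. All 3 mutant libraries lay below the wild-type ones for Atp2a2, but the adjusted p of 0.0515 missed the threshold, and 8 of 19 alternatives called it. Pln, its inhibitor phospholamban, differed by -0.41 (adjusted p 0.0973) and Ryr2, the calcium release channel, by -0.24 (adjusted p 0.695).

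Genes of fatty acid uptake and oxidation were mostly lower: 10 of 36 tested members fell and 1 rose. A log2 fold change below 0 was found in 30 members, against 5572 of all 13632 tested genes. The median of the list was -0.34. Acot1, an acyl-CoA thioesterase, was 30, 21 and 31 against 12, 10 and 9 (-1.31, limma adjusted p 0.00294). Acaa2, the last enzyme of mitochondrial beta-oxidation, was 940, 809 and 949 against 547, 497 and 380 (-0.93, adjusted p 0.00621). Both were called in every alternative, which held for no other member. Hadh, the short-chain hydroxyacyl-CoA dehydrogenase, was 682, 631 and 741 against 481, 445 and 380 (-0.66), with an adjusted p of 0.0115 that became 0.0536 without mutant replicate 2 and 0.0515 without wild type replicate 3. The 1 rise was in Pdk4, the kinase that blocks pyruvate oxidation, at 1174, 1116 and 1448 against 3043, 2337 and 1913; its adjusted p of 0.0146 became 0.0593 without mutant replicate 2 and 0.0743 without wild type replicate 1. The count of falls rested on single libraries: it was 2 without mutant replicate 2, 2 without wild type replicate 3, 4 without mutant replicate 3, 4 without wild type replicate 1 and 3 without both libraries with Xist. Cd36, the main fatty acid transporter, was 1984, 1660 and 2002 against 1646, 1580 and 1836, with overlap (-0.16, adjusted p 0.548), and Fabp3, the heart fatty acid binding protein, differed by 0.09 (adjusted p 0.779).

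For glucose, 5 of 33 tested members fell and 3 rose. Pfkfb1, a regulator of glycolytic flux, was 7 in each wild-type and 1 in each mutant library. Slc2a4, the insulin-responsive glucose transporter, was 312, 309 and 311 against 195, 183 and 137 (-0.87, SE 0.135, limma adjusted p 0.00591). Eno3, the muscle enolase, was 1306, 1372 and 1428 against 875, 847 and 713. These 3 falls were called in every alternative that tested them. The rises (Pfkp, Pgam1 and Gbe1, with log2 fold changes of 0.55, 0.54 and 0.48) were each lost in several; the number of rises was 0 without mutant replicate 2, mutant replicate 3, wild type replicate 1 or both libraries with Xist, and 1 without wild type replicate 2 or 3. The number of falls was 3 without mutant replicate 2, wild type replicate 2 or wild type replicate 3.

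Respiratory chain transcripts were slightly lower and few passed the test. Of 80 nuclear-encoded members 72 had a log2 fold change below 0, against 5572 of all 13632 tested genes. The median of the list was -0.19. In 39 of the 80 members every mutant library lay below every wild-type one, against 1197 of the 13632 tested genes. Called lower were 2 of the 80 (2.5%, against 3.15% over all genes). These were Cox7a1, the muscle isoform of a cytochrome oxidase subunit (294, 259 and 257 against 181, 185 and 133), and Sdhc, a subunit of succinate dehydrogenase (480, 432 and 430 against 328, 326 and 301). Cox7a1 lost its call without wild type replicate 1 (limma adjusted p 0.0779), and Sdhc without mutant replicate 2 (0.0762) or wild type replicate 3 (0.0519). The median was -0.28 to -0.08 over the alternatives, the last without the libraries with Xist. Of 15 mitochondrially encoded transcripts 2 fell, mt.Co3 (3444, 2248 and 2896 against 1498, 1399 and 1848) and mt.Rnr1 (1876, 1652 and 2051 against 1225, 1143 and 1251). Both calls were lost without mutant replicate 2 (0.111 and 0.0868) or wild type replicate 3 (0.0725 and 0.0618), and that of mt.Co3 without wild type replicate 1 (0.0797). In energy transfer, Ckb, the brain-type creatine kinase, rose (45, 47 and 39 against 73, 74 and 81) and Ak4, a mitochondrial adenylate kinase, fell (39, 49 and 42 against 14, 10 and 10), while Ckm, the muscle creatine kinase, differed by -0.31 (adjusted p 0.252).

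The listed extracellular matrix genes that were called in the reported fit were all higher in mutants. Of 50 tested matrix, matricellular and TGF-beta genes 20 rose, with a median log2 fold change of 0.71, and of 31 tested collagens 10 rose, with a median of 0.69. Besides Fmod and Thbs4, Cilp, a matrix protein of fibrotic hearts, was 23, 29 and 19 against 145, 163 and 314 (3.01, SE 0.277, limma adjusted p 0.000527). Ltbp2, a microfibril protein, was 2, 4 and 5 against 21, 37 and 54, and Ccn2, the connective tissue growth factor, was 47, 52 and 59 against 176, 171 and 271. In all of these mutant replicate 3 was the highest library. Postn, periostin of activated fibroblasts, was 68, 115 and 66 against 119, 209 and 428, a difference of 1.44 that did not pass (adjusted p 0.0751) though the groups did not overlap. Fn1, fibronectin, differed by 0.42 (adjusted p 0.391). Without both libraries with Xist, 13 of the 50 genes rose and 1 fell, and 12 rose without wild type replicate 1. A fall of 1 gene was also called under median-of-ratios or upper-quartile factors, with a mean of at least 10 and without mutant replicate 3. The same held with mitochondrially encoded transcripts left out, the Y-linked covariate or prior degrees of freedom from all tested genes. Under either scaling or with mitochondrially encoded transcripts left out, 1 collagen was called lower.

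Among collagens, Col9a2, a fibril-associated chain, was 1 in each wild-type library and 6, 10 and 18 in mutants. Col8a1, a short-chain collagen, was 48, 66 and 49 against 134, 180 and 360 (1.92, SE 0.315, limma adjusted p 0.00752, and 0.0521 without wild type replicate 1). The basement-membrane chain Col4a3 was 10, 17 and 13 against 23, 32 and 44 (1.23), with an adjusted p of 0.0198 that exceeded 0.05 without mutant replicate 2 (0.0754), mutant replicate 3 (0.0564), wild type replicate 1 (0.0947) or wild type replicate 3 (0.0564). Col3a1, a main fibrillar collagen, was 656, 832 and 466 against 738, 928 and 1305, with overlap (0.60, adjusted p 0.219). The number of rises was 2 without wild type replicate 1, 3 without mutant replicate 2, 4 without mutant replicate 3, 5 without wild type replicate 3 and 3 without both libraries with Xist. Of 11 fibroblast markers 8 had a log2 fold change above 0, against 8060 of all 13632 tested genes. The other 3 markers were below 0, and in 1 of them every mutant library lay below every wild-type one. Called higher were 3 (Col1a1, Col1a2 and Pdgfrl, the first and second also collagens). The summed values of all 11 overlapped, at 4288, 3864 and 3263 in wild type and 3818, 3953 and 5106 in mutants. None of these 3 rises remained called without mutant replicate 2, mutant replicate 3, wild type replicate 1 or the libraries with Xist. The markers Pdgfra and Dcn were at 0.39 and 0.53 (adjusted p 0.187 and 0.142). The part of the fibroblast markers in the matrix result was not tested.

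Genes listed as secreted hormones and growth factors split into rises and falls, 9 and 6 of 33 tested members. The rises were led by Edn3, Nppa, Nppb, Gdf15 and Fstl3, an activin inhibitor that was 1 in each wild-type library and 5, 4 and 7 in mutants. Hbegf, a ligand of the epidermal growth factor receptor, was 16, 16 and 14 against 42, 31 and 39. Genes of the fibroblast growth factor family made up 4 of the 6 falls, among them Fgf13, whose protein is not a secreted ligand. Fgf16 was 24, 21 and 18 in wild type and 6, 6 and 7 in mutants (-1.58, SE 0.151, limma adjusted p 0.000608), and Fgf1 was 246, 256 and 276 against 179, 180 and 148. Fgf2 and Fgf13 also fell (-0.89 and -0.75), and both calls were lost without mutant replicate 2 (0.102 and 0.0546) or wild type replicate 1 (0.0627 for each), that of Fgf2 also without wild type replicate 2 (0.0693) or wild type replicate 3 (0.0607). Apln, the ligand of the apelin receptor, went from 23, 47 and 24 to 8, 10 and 10. Vegfa, the vascular growth factor, was above wild type in each mutant library at 0.42 without a call (adjusted p 0.0749). Without both libraries with Xist, 7 rose and 6 fell.

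In the signalling and transcription factor lists 10.34% and 12% of tested members were called, against 7.71% over all genes. Of 29 tested genes of calcineurin, CaMKII and adrenergic signalling, 2 rose (Rcan1 and Nfatc2) and 1 fell, Adra1b, an alpha-adrenergic receptor (42, 36 and 38 against 20, 18 and 13). Nfatc2, a calcineurin-regulated factor, had a limma adjusted p of 0.0382 that exceeded 0.05 with any 1 library other than mutant replicate 1 left out (0.0736 to 0.132). Of 25 cardiac transcription factors, 1 rose and 2 fell: Rxrg, a retinoid receptor, was 62, 59 and 59 against 33, 32 and 23, while Tbx20 (0.70) and Tbx5 (-0.52) were called less firmly. Tbx20 lost its call without mutant replicate 3 (0.0551), wild type replicate 1 (0.074) or wild type replicate 3 (0.0668), and Tbx5 with any 1 of the 6 libraries left out (0.0563 to 0.175). Gata4, a central factor of heart development, was not called (0.18, adjusted p 0.465). Among 5 aquaporins, Aqp8 rose and Aqp4 fell, while Aqp7, which also carries glycerol, was 41, 32 and 34 against 27, 25 and 31 (-0.35, adjusted p 0.189), and Aqp1, the endothelial water channel, was 500, 473 and 661 against 521, 504 and 546 (-0.04).

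Protein-folding genes of the cytosol rose in part, and those of the endoplasmic reticulum did not pass the test. Of 22 tested heat shock proteins and sarcomere chaperones 8 rose and 0 fell. Hsp90aa1, the inducible form of Hsp90, was 98, 109 and 90 against 237, 234 and 272 (1.31, SE 0.111, limma adjusted p 0.000325). Hspb1, a small heat shock protein, was 141, 131 and 121 against 317, 254 and 264. Hspa8, the constitutive Hsp70, was 1202, 1261 and 1329 against 2003, 1808 and 1881 (0.59, adjusted p 0.01, and 0.0506 without mutant replicate 2, 0.0928 and 0.0751 under both other scalings). Without mutant replicate 2 the number of rises was 4, with all 9 libraries in the fit it was 5, and without both libraries with Xist it was 8. The inducible Hsp70 gene Hspa1a was at most 2 in any library, and Cryab, the lens and muscle chaperone, differed by 0.33 (adjusted p 0.149). Of 15 endoplasmic reticulum chaperones 0 were called by limma in the reported fit, and 0 in each alternative; Hspa5, the main one, was 580, 549 and 477 against 525, 477 and 456.

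Other stress programmes moved in part. Of 22 immediate-early factors 6 rose, led by Egr3 (2, 2 and 1 against 9, 4 and 8) and Atf3 (4, 3 and 3 against 19, 8 and 8). Egr3 lost its call without mutant replicate 3 (limma adjusted p 0.0606) or wild type replicate 1 (0.0566), and Atf3 with any 1 wild-type replicate left out (0.0759, 0.0553 and 0.0722). Fos was 1 to 3 in every library. Btg2, an antiproliferative gene, was called in every alternative (42, 39 and 36 against 85, 71 and 68), but the number of rises was 2 without wild type replicate 1, 3 without wild type replicate 3 and 1 without both libraries with Xist. Of 14 p53 targets 5 rose, led by Cdkn1a, the cell-cycle inhibitor p21 (37, 23 and 46 against 113, 93 and 76). Cdkn1a alone kept its call in each fit that left out a library; the number of rises was 1 without wild type replicate 1, 2 without mutant replicate 2, 2 without mutant replicate 3, 3 without wild type replicate 2, 3 without wild type replicate 3 and 1 without both libraries with Xist. Of 22 genes of the integrated stress response and serine one-carbon metabolism 3 rose and 1 fell (18.2% called, against 7.71% over all genes). Mthfd2, a mitochondrial folate enzyme, was 2, 3 and 2 against 8, 11 and 11, and Aldh1l2, another, was 6, 13 and 11 against 3, 3 and 3. Among 23 muscle ubiquitin ligases and Kelch proteins 4 rose and 3 fell; Klhl34 was 4, 6 and 6 against 24, 20 and 18, and Asb14 was 78, 83 and 89 against 42, 43 and 41. The atrophy ligases Fbxo32 and Trim63 were not called (0.31 and -0.03, adjusted p 0.408 and 0.920). Rises in this list numbered 1 without mutant replicate 1, mutant replicate 2, wild type replicate 1, wild type replicate 3 or both libraries with Xist, and 2 without mutant replicate 3 or wild type replicate 2.

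Markers of other cell types were read in the same libraries. Of 10 cardiomyocyte markers 0 were called by limma, and their summed values were 53261, 58511 and 61919 in wild type and 66266, 61768 and 54490 in mutants, so the labelled tissue carried its defining transcripts in every library. Of 14 endothelial and 19 macrophage and monocyte markers 0 were called by limma. Macrophage sums were 676, 729 and 534 against 569, 843 and 1115, with mutant replicate 3 highest, and without mutant replicate 1, 6 macrophage markers were called higher. Lymphocyte, neutrophil and adipocyte lists had only 2, 1 and 2 tested members, and 0 of them were called. In smooth muscle and pericytes 1 of 9 was called, Acta2. Erythroid markers were lower in all 6 tested members, with sums of 304 and 337 in wild type replicates 1 and 2 and of 85, 95 and 106 in mutants, and with wild type replicate 3 between them; 2 were called, against 0 without both libraries with Xist and 5 without wild type replicate 3. Of 6 tested nerve and Schwann cell markers 2 fell, with sums of 22, 20 and 15 over the list against 10, 7 and 11. One was Gfra3, a co-receptor of sensory neurons (3, 3 and 2 against 1, 1 and 1, called in 7 of 18 alternatives), and the other Dbh, which makes noradrenaline (3, 4 and 4 in wild type, listed at 0 in mutants). Krt8 and Krt18, keratins of mesothelium and other epithelia, were 0 and 1 in each wild-type library and reached 6, 8 and 8, and 6, 6 and 10, in mutants, while Wt1, a mesothelial marker, was 4, 6 and 3 against 2, 3 and 4. Whether cell composition had a part in any result above was not tested.

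**Figure D5:**
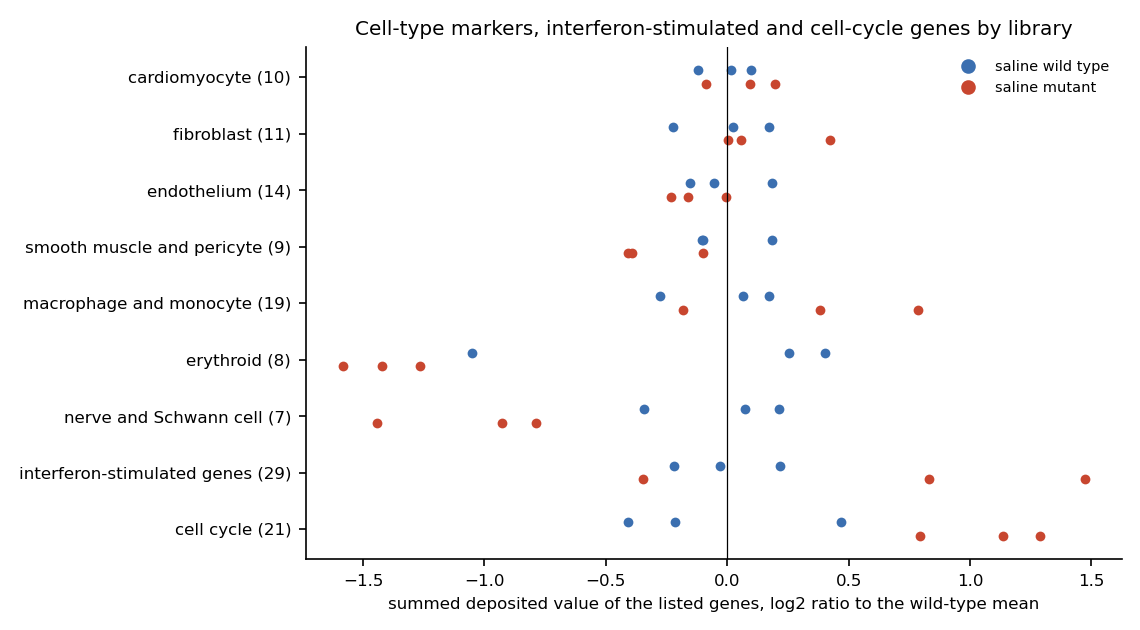
Summed deposited values of marker genes and of interferon-stimulated and cell-cycle genes in each library, as the log2 ratio to the mean of the 3 wild-type libraries (horizontal axis; blue saline wild type, red saline mutant; numbers in brackets are genes). Cardiomyocyte sums overlap between groups, erythroid sums are lowest in the mutants (85 to 106), and interferon sums differ widely among the mutants (485 to 1712).

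Interferon-stimulated genes varied between libraries of the mutant group. Their summed values were 716, 604 and 530 in wild type and 485, 1712 and 1096 in mutants, so mutant replicate 1 lay below every wild-type library and the other two above them. All 29 had a log2 fold change above 0, against 8060 of all 13632 tested genes, with a median of 0.56. Of the 29, 0 were called by limma. Without mutant replicate 1, 19 of them were called higher. Of 21 cell-cycle genes 2 rose (9.52% called, against 7.71% over all genes). Ccnd2, a cyclin of the early cell cycle, was 102, 128 and 108 against 351, 418 and 408 (1.79, SE 0.120, limma adjusted p 0.000128). The proliferation marker Mki67 was 3, 27 and 8 against 11, 27 and 35, with overlap, and the number of rises was 5 without wild type replicate 2 and 1 without any other single library. The list's median of 0.60 was 0.04 without both libraries with Xist. Of 19 circadian clock genes 2 rose and 1 fell, none in every alternative (15.8% called, against 7.71% over all genes). Dbp, which varies strongly over the day, was 102, 75 and 70 against 48, 71 and 72 (-0.37, limma adjusted p 0.338). Nr1d1, a repressor of the clock, differed by -0.18 (limma adjusted p 0.664). Of 81 cytosolic ribosomal proteins 1 rose and 1 fell (2.47% called, against 7.71% over all genes), with a median of 0.13.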

How the data were processed

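RNA sequencing measured gene expression. Per the submitters' processing notes, HISAT2, HTSeq, DESeq2 and mm10 were used, with no roles stated. The deposited values per library are treated as a score: whole numbers with nearly equal totals in each library, whose unit no label or header names. They look like a rounded measure per library total, so depth is unknown and no counting error was computed. The authors' deposited fold changes and p-values were not used.

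Saline mutant and saline wild-type libraries were fitted alone by limma (version 3.58.1, R 4.3.3) on log2(value + 1), for genes averaging at least 1. Residual variances below the variance that rounding adds (1/12 in value units) were raised to it. The fit used a mean-variance trend, and its prior degrees of freedom (4.634) were estimated where genes averaged at least 30. Calls required an adjusted p under 0.05 (Benjamini-Hochberg over all 13632 genes). The fitting code was tested on simulated data.

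Named are Mybpc3, the 12 top rises and 12 top falls (called, groups not overlapping, higher group averaging at least 10), the 5 top rises and falls by value, and per gene list at most 5 called and 3 uncalled members, with additions where a count is small. Gene lists and members were chosen with earlier results of these data known. Alternatives covered the pseudocount, filter, variance step, scaling, replicate block, covariates and left-out libraries. Coordinates are GRCm38 (GENCODE M21) or GRCm38.p6 (RefSeq). Results for some genes are not reported here.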

Additional observations from a re-analysis of the deposited data

How the results depend on the processing

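Against 1051 called genes (622 higher, 429 lower), the count was 825 to 1311 under every planned change of pseudocount, filter, variance step, scaling or covariate and with all 9 libraries in the fit. Upper-quartile factors gave 685 lower calls, and the cause was not tested. Calls of at least 2-fold numbered 214 with a pseudocount of 5 and 237 with a mean of at least 10, against 432; a larger pseudocount shrinks folds of low genes and the filter tests fewer genes. Without both libraries with Xist, 580 genes were called (327 higher, 253 lower), and with 1 library left out 528 to 1037 (319 to 684 higher, 209 to 353 lower), in fits with fewer samples. Without the rounding floor, rises numbered 9 among matrix genes, 2 among collagens, 3 among immediate-early factors and 2 among p53 targets, and falls 6 among fatty acid genes. Immediate-early rises numbered 2 with a mean of at least 10.

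With the replicate number as a block (replicate block), 824 genes were called, 769 of them among the 1051. Same-numbered libraries did not deviate together (Pearson r -0.22, -0.10 and -0.37 for numbers 1 to 3, over 8793 genes). With so few libraries, whose deviations from a group mean depend on each other, these values cannot decide whether the numbers pair samples. The labels do not say.

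Of 3066 single-gene results over 163 named genes, 168 lost a call, 23 gained one, and 2853 changed neither call nor sign. The sign changed in 22, over 9 genes that were not called in the reported fit; the cause was not tested. With 1 library left out, the log2 fold change was -0.089 to 0.24 for Myh6, -0.048 to 0.13 for Myl2, -0.022 to 0.17 for Fabp3, -0.041 to 0.53 for Fos, -0.14 to 0.11 for Aqp1, -0.33 to 0.024 for Nr1d1, -0.083 to 0.030 for Trim63, -0.12 to 0.048 for Upf1 and -0.96 to 0.45 for mt.Nd3. Myl2 was at -0.0339 under median-of-ratios factors, -0.0574 under upper-quartile factors and -0.0139 with mitochondrially encoded transcripts left out, and Fabp3 at -0.0072 under upper-quartile factors. Without the libraries with Xist, Nr1d1 was at 0.053, Trim63 at 0.0044 and mt.Nd3 at 0.26. The median log2 fold change over all genes was 0.12 without mutant replicate 1 and 0 without mutant replicate 3, against 0.07. Depth is unknown, so no limit of detection can be given.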

Other observations

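Several pairs of related genes went opposite ways, and these were picked after their values were seen. Rpl3, a protein of the large ribosomal subunit, was 270, 257 and 208 in wild type and 345, 415 and 527 in mutants (log2 fold change 0.79, limma adjusted p 0.0222), and its muscle-specific paralog Rpl3l was 262, 218 and 257 against 95, 81 and 50 (-1.74, adjusted p 0.00176). The fall of Rpl3l was called in every alternative; the rise of Rpl3 was lost without mutant replicate 2 (0.0800), mutant replicate 3 (0.0551), wild type replicate 1 (0.0568) or wild type replicate 3 (0.0780). Maoa, one of the enzymes that break down noradrenaline and serotonin, was 6, 9 and 7 against 17, 19 and 24 (1.33, adjusted p 0.00307), while Maob was 31, 37 and 33 against 14, 13 and 10 (-1.39, adjusted p 0.00105). The laminin chain Lamc3 (0, 1 and 1 against 7, 9 and 7) rose, and the chain Lamb3 (22, 20 and 23 against 10, 8 and 10) fell. The LIM proteins Fhl1 and Fhl2 and the water channels Aqp8 and Aqp4 are further such pairs.

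Metabolic and receptor genes outside the lists also changed, again chosen after their values were seen. Glul, glutamine synthetase, was 372, 388 and 590 against 926, 964 and 1033 (1.14, limma adjusted p 0.00482). Crhr2, a receptor for urocortins, was 26, 25 and 25 against 7, 8 and 5 (-1.80, adjusted p 0.000570). Tnfrsf12a, the receptor of the cytokine TWEAK, was 32, 25 and 20 against 155, 134 and 150 (2.49, adjusted p 0.000120), and Fgl2 was 73, 80 and 60 against 353, 292 and 364. Wnk2, a kinase that regulates ion transport, was 56, 88 and 90 against 22, 17 and 13, and Egln3, an oxygen-sensing hydroxylase, was 76, 95 and 64 against 32, 33 and 27. All of the genes in this paragraph were called in every alternative that tested them.

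Cpt1b, the carnitine palmitoyltransferase of muscle, read only 1, 2 and 2 in wild type and 2, 3 and 3 in mutants. How the authors' counting assigned reads of this gene is uncertain, so these values are not read as its level. The mitochondrial transcript mt.Nd3 was 124, 207 and 132 against 527, 74 and 80, with mutant replicate 1 far above the others.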
